A study of Mus musculus with 29 samples.

Results

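Hindlimb muscle of calorie-restricted mice fed fish oil was compared with that of restricted mice fed lard. The comparison took every muscle library whose diet label was fish (3) and every one whose label was lard (4), which made 7 of the 29 libraries of the series. All mice were male C57BL/6, an inbred laboratory strain, bought at 14 weeks of age and put on their diets at 4 months. Both groups received 60% of ad libitum intake (8.6 kcal per day), so restriction itself was shared and only the labelled fat differed. Soy muscles (3, also at 60%) and control muscles (4, at 95% or 13.6 kcal per day) are given here as levels only. The livers of 4 fish and 4 lard mice were used for a comparison of tissues. They include the liver of fish mouse 1125, which has no muscle library here. The authors left out the fish muscle of mouse 1125, for its clustering and a lower RNA integrity, so the fish group had 3 animals. RNA came from the whole hindlimb musculature and was prepared with TruSeq kits. Libraries are named by diet and mouse number.

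Fish oil is rich in long-chain omega-3 fatty acids, which enter muscle membranes, are ligands of the PPAR nuclear receptors that drive genes of fatty acid oxidation, and reduce the activity of SREBP1, the master regulator of fatty acid synthesis. Lard supplies mostly saturated and monounsaturated fat. Muscle also carries an integrated stress response: kinases that sense amino acid shortage, unfolded protein or mitochondrial trouble slow general translation but favour that of the transcription factor ATF4, which then switches on genes of serine, glycine, asparagine and proline synthesis and of amino acid import.

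Depth, as total exon reads, ranged from 12580798 to 27106865 over the 7 libraries (median 16300183). Skeletal muscle markers, the 15 genes that include the fast myosin Myh4, actin Acta1 and creatine kinase Ckm, summed to 170393 to 190305 CPM (counts per 1000000 exon reads) in fish and 176150 to 202512 CPM in lard libraries, so the defining markers of the labelled tissue were present. Keratinocyte markers, genes of the skin's epidermis, summed to 597 CPM in fish 1124 and 138 CPM in lard 1102, against 17.3 to 45.6 CPM in the other 5. The basal keratin Krt5 had 632 reads in fish 1124, 84 in lard 1102 and 0 to 33 in the others. Fish 1124 also lay at 49.4 on the first principal component (35.4% of the variance), against -23.9 to 1.89 for the other 6. The gene lists, and many genes whose value moved, are therefore given with and without it. A gene given only once may also have moved, as the ribosomal gene Rpl28 did from a log2 fold change of 0.59 to 0.29. The share of gene reads outside annotated exons was 6.08%, 6.21% and 6.50% in fish 1067, 1123 and 1124 and 5.74% to 5.95% in the lard libraries; its part in the results was not tested. Control muscles 1071 and 1120, quoted below for levels, had erythroid markers summing to 2371 and 7270 CPM, against 495 to 1166 CPM in the other 12 muscles. In bulk tissue, fewer cells of a type and less RNA per cell cannot be told apart.

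No gene passed between fish oil and lard: 0 of 12710 genes tested (0%) had a Benjamini-Hochberg adjusted p under 0.05 by edgeR's quasi-likelihood test, and the smallest adjusted p was 0.531. At an unadjusted p under 0.05 there were 552 genes higher (4.34%) and 559 lower (4.4%) in fish, 8.74% in all. In 458 genes (3.6%) every fish library lay above every lard library, and in 624 (4.91%) every fish library lay below. Counts within the gene lists below are to be read beside these shares over all genes. The DESeq2 Wald test called 14 genes higher (0.11%) and 24 lower (0.189%), and limma-voom called 0. The authors' deposited table gives an unadjusted p under 0.05 for 1185 of 14122 genes, with 9.15e-05 as its smallest p. Genes below are therefore described by their values, and none is called changed on the edgeR test of the 7 libraries. The p-values measure the spread between animals. Without fish 1067 alone the edgeR count became 32 higher (0.249%) and 9 lower (0.0701%), and without fish 1124 it stayed 0.

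**Figure D1:**
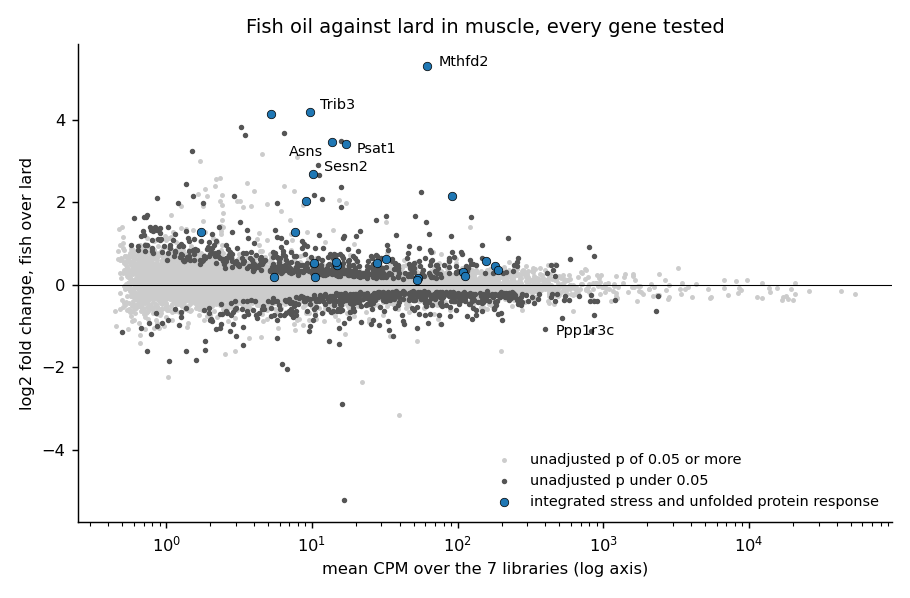
Each point is 1 of the 12710 genes tested, with its mean CPM over the 7 libraries on a log axis and its log2 fold change of fish over lard on the vertical axis. Dark points have an unadjusted p under 0.05 and blue points are the 24 tested genes of the integrated stress and unfolded protein response, all of which lie above 0, with Mthfd2 at 5.31.

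Mthfd2 and other genes of the integrated stress response were among those with large fold changes toward fish oil, and they separated the fish libraries from each other. Mthfd2, the mitochondrial enzyme that oxidizes methylene-tetrahydrofolate in one-carbon metabolism (ENSMUSG00000005667, chromosome 6, 83305691 to 83317606, GRCm38), stood at 2.87 CPM in fish 1067, 138 CPM in fish 1123 and 279 CPM in fish 1124. In lard libraries 1100, 1101, 1102 and 1130 it stood at 2.67, 3.15, 4.37 and 4.31 CPM. The mean was 140 ± 138 CPM (SD, n = 3) with fish oil and 3.62 ± 0.849 CPM (n = 4) with lard. Fish 1123 and 1124 were thus far above all lard libraries, whereas fish 1067 lay inside their range. The log2 fold change was 5.31 ± 1.11 (SE), a 39.6-fold ratio, and it did not pass (edgeR adjusted p = 0.531). It passed by DESeq2 (adjusted p = 0.00909) and without fish 1067 (edgeR adjusted p = 0.00155), and without fish 1124 it was 4.30 (adjusted p = 0.86).

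All 24 tested members of the 27-gene list of integrated stress and unfolded protein response had a positive log2 fold change, against 6746 of all 12710 genes. Of the 24, 16 were higher and 0 lower at an unadjusted p under 0.05, against 4.34% and 4.4% of all genes. The groups did not overlap in 2 members, both higher in fish, against 3.6% of all genes, and none passed after adjustment. The list median was 0.57 against 0.01 over all genes, and 0.22 against 0.0028 without fish 1124. Fish 1124 exceeded every lard library in 24 of 24 members, fish 1123 in 21 and fish 1067 in 2. Over all genes tested those shares were 28.5% in fish 1124, 22.8% in fish 1123 and 18.5% in fish 1067. Fish 1067 lay within the lard range in 21 of the 24, and fish 1124 was above fish 1123 in all 24. The list was chosen with earlier results of these data known, so its counts describe these libraries and are not independent support.

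Enzymes of serine, one-carbon and asparagine synthesis had the same order of fish libraries. Psat1, the aminotransferase of serine synthesis (chromosome 19, 15904678 to 15947337), was at 3.90, 33.1 and 70.1 CPM in fish 1067, 1123 and 1124 and at 4.13, 3.82, 2.66 and 2.63 CPM in lard 1100, 1101, 1102 and 1130. Its log2 fold change was 3.41 ± 0.75, and 2.45 without fish 1124. Asns, asparagine synthetase (chromosome 6, 7675169 to 7693254), was at 2.68, 23.0 and 60.5 CPM in the fish libraries and at 3.30, 2.95, 2.28 and 1.60 CPM in the lard libraries. Its log2 fold change was 3.47 ± 0.81, and 2.30 without fish 1124. In both genes fish 1123 and 1124 stood apart and fish 1067 did not. Phgdh, which commits glycolytic carbon to serine, was at 4.94, 14.8 and 28.6 CPM against 2.07 to 6.38 CPM with lard, with 60.9% unique reads (2.03, and 1.31 without fish 1124). The later serine and glycine enzymes Psph and Shmt2 were at log2 fold changes of 0.52 ± 0.21 and 0.54 ± 0.21, and each shares exon bases with a gene on the opposite strand. Members of this list beyond Mthfd2, Psat1, Trib3 and Sesn2 are named here after their values were seen.

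Regulators and amino acid carriers of the response followed. Trib3, a pseudokinase that restrains ATF4 signalling and AKT, was at 0.793, 12.7 and 49.3 CPM in fish 1067, 1123 and 1124 against 0.938 to 1.52 CPM with lard (log2 fold change 4.18 ± 1.03, and 2.52 without fish 1124). Sesn2, a leucine sensor upstream of mTORC1, was at 3.66, 12.2 and 43.2 CPM against 2.59 to 3.99 CPM (2.67 ± 0.69, and 1.35 without fish 1124). Slc7a5, the large neutral amino acid carrier, was at 0.549, 7.19 and 26.5 CPM against 0.507 to 0.877 CPM, and its partner chain Slc3a2 was at 25.4, 35.7 and 60.0 CPM against 21.9 to 30.8 CPM. Atf5, a transcription factor of the mitochondrial unfolded protein response, was at 39.4, 142 and 309 CPM against 30.1 to 42.9 CPM; its exons overlap those of Il4i1 on the opposite strand. Atf4 itself, controlled largely at translation, was at 157, 201 and 283 CPM against 131 to 188 CPM (0.46 ± 0.20, and 0.19 without fish 1124). Without fish 1124 Slc7a5 went from 4.13 to 2.56, Slc3a2 from 0.62 to 0.21 and Atf5 from 2.14 to 1.27. In these genes fish 1067 again sat within or next to the lard libraries.

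A further 3 members reached the filter's minimum count in too few libraries to enter the test and are given as reads. Fgf21, a hormone secreted by stressed muscle and liver, had 2, 26 and 187 reads in fish 1067, 1123 and 1124 and 0, 0, 0 and 2 in the lard libraries. Gdf15, a stress cytokine that acts on appetite, had 1, 8 and 48 reads against 0 to 2. Slc7a11, the cystine carrier, had 6, 126 and 288 reads against 2 to 15. All 3 ranked the fish libraries as Mthfd2 did.

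The list also holds chaperones of the endoplasmic reticulum and stress regulators. Hspa5, the lumenal chaperone BiP, was at 169, 204 and 276 CPM in fish 1067, 1123 and 1124 against 153 to 195 CPM with lard (0.37 ± 0.17, and 0.14 without fish 1124). Herpud1, which acts in degradation from the reticulum, was at 133, 157 and 288 CPM against 124 to 136 CPM (0.58 ± 0.23, and 0.16 without fish 1124), with fish 1124 far above the rest. Nupr1, a small stress-induced chromatin protein, was 1 of the 2 members without overlap, at 6.04, 6.92 and 21.8 CPM against 3.93 to 5.22 CPM (1.28 ± 0.42, and 0.44 without fish 1124). The other was Pdia4, a disulfide isomerase, at 11.2, 11.2 and 11.4 CPM against 9.50 to 11.0 CPM. Ddit3, which encodes the pro-apoptotic factor CHOP, was at 10.9, 16.5 and 25.9 CPM against 8.93 to 16.3 CPM and overlapped in fish 1067. Its exons overlap those of Mars on the opposite strand. Chac1, which degrades glutathione, was at 98.9, 83.6 and 186 CPM against 70.1 to 137 CPM, and its log2 fold change of 0.32 became -0.12 without fish 1124.

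Several genes outside the list, picked after their values were seen, had the same arrangement. Aldh18a1 and Pycr1, the first and last enzymes of proline synthesis from glutamate, were at 3.17, 30.9 and 64.4 CPM and at 3.41, 19.3 and 42.9 CPM in fish 1067, 1123 and 1124. Their lard ranges were 2.08 to 3.99 CPM and 2.08 to 3.80 CPM. Aldh1l2, a mitochondrial folate enzyme whose exons overlap D10Wsu102e on the opposite strand, was at 7.32, 26.5 and 54.1 CPM against 4.73 to 7.58 CPM. Pck2, the mitochondrial phosphoenolpyruvate carboxykinase, was at 4.69, 16.7 and 41.2 CPM against 3.35 to 6.14 CPM. The arginine carrier Slc7a1 was at 4.15, 16.0 and 35.5 CPM against 3.49 to 4.81 CPM. Cyb5r1, a reductase of the cytochrome b5 reductase family, was at 58.2, 184 and 365 CPM against 62.0 to 67.4 CPM. Atf3, a stress-induced transcription factor also outside the list, did not have this arrangement. It was at 7.68, 7.66 and 5.72 CPM against 3.67 to 235 CPM. Without fish 1124 the log2 fold changes went from 3.48 to 2.52 for Aldh18a1, 2.89 to 1.93 for Pycr1, 2.38 to 1.57 for Aldh1l2, 2.07 to 1.10 for Pck2, 2.16 to 1.27 for Slc7a1 and 1.64 to 0.88 for Cyb5r1. Of the 32 genes called higher without fish 1067, 8 were members of the integrated stress list, and none of the 9 called lower was. The 8 were Mthfd2, Psat1, Slc7a11, Asns, Atf5, Slc7a5, Trib3 and Sesn2. Slc7a11 entered that fit only through the reads of fish 1123 and 1124, since it was filtered out of the fit of 7 libraries. Fish 1067 differs from fish 1123 and 1124 in these very genes, so its removal gives no independent support.

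High levels of these genes were also measured in 1 soy muscle. Soy 1065 held 129 CPM of Mthfd2, 25.9 CPM of Psat1, 17.6 CPM of Asns, 25.7 CPM of Aldh18a1 and 6.07 CPM of Trib3. The other 2 soy muscles held 2.42 and 4.36 CPM of Mthfd2, and the 4 control muscles 3.11 to 8.53 CPM. Soy 1065 exceeded every control muscle in 12 of the 24 list members, and in 19% of all genes tested. Keratinocyte markers summed to 27.3, 19.6 and 597 CPM in fish 1067, 1123 and 1124 and to 25.5 CPM in soy 1065. In fish 1123, 14 of the 25 markers in the table were at 0. The part of skin cells in the levels of the stress genes was not tested. In the 8 livers of fish and lard mice Mthfd2 stood at 0.272 to 0.989 CPM, Psat1 at 0.528 to 1.48 CPM and Asns at 0.152 to 1.06 CPM, also in mice 1123 and 1124. Trib3 was at 9.40, 13.2, 11.3 and 4.86 CPM in the livers of fish 1067, 1123, 1124 and 1125, against 3.29 to 6.44 CPM with lard, so fish 1125 lay inside the lard range and the other 3 above it.

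**Figure D2:**
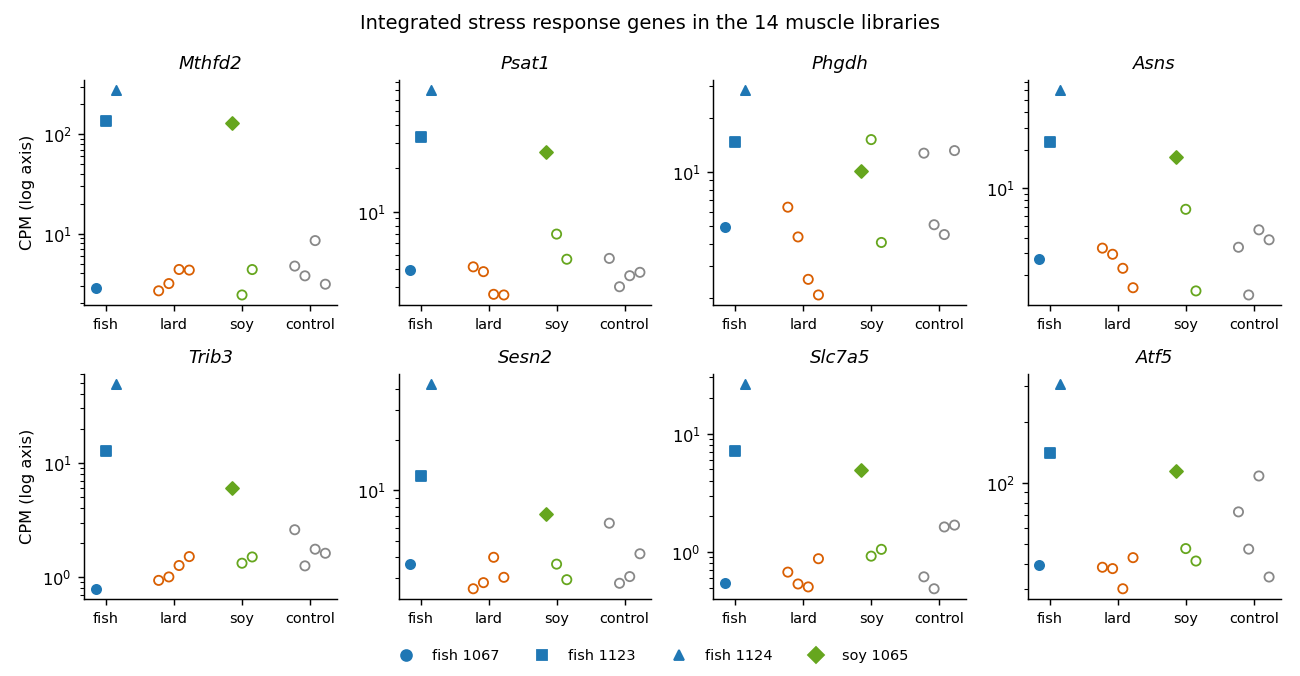
CPM of 8 integrated stress response genes on log axes, with 1 point per muscle library grouped by diet; filled symbols mark fish 1067 (circle), 1123 (square) and 1124 (triangle) and soy 1065 (diamond). Fish 1123, fish 1124 and, for most genes, soy 1065 lie above the open lard symbols, while fish 1067 lies among or next to them.

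The windows upstream of a few of these genes are shown because fish 1124 was above fish 1123 in all 24 tested list members. Not every member ranked all the fish libraries alike, as the values of Chac1 show. ATF4 binds composite C/EBP-ATF elements, whose core was searched as TGATGNAA on both strands in the 250 bases before each RefSeq transcript start. A match was present in 6 of the 25 list members with a window (24%), against 3.91% of 27025 genes. The 6 were Asns, Slc7a11, Fgf21, Chac1, Nupr1 and Herpud1, and the other list members with a window had none. The list was made of genes of the response that ATF4 drives, so its higher share describes the list and not these libraries. The windows printed are mostly of members with a match, unlike the list as a whole. Below are the strand of the gene 5′ to 3′, from RefSeq on GRCm38.p6, with matches in either orientation in capitals; TTGCATCA is a match on the other strand. Asns, chr6:7693210-7693459, minus strand, has its match 23 bases before the RefSeq start, and so inside the GENCODE span given above, which begins further upstream:
Asns: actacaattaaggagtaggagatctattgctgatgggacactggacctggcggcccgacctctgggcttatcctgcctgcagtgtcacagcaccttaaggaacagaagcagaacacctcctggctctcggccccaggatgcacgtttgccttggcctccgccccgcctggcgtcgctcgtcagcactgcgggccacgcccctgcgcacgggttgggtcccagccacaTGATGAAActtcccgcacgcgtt
Slc7a11, chr3:50443614-50443863, minus strand, has 2 matches, 66 and 47 bases before the start and in opposite orientations:
Slc7a11: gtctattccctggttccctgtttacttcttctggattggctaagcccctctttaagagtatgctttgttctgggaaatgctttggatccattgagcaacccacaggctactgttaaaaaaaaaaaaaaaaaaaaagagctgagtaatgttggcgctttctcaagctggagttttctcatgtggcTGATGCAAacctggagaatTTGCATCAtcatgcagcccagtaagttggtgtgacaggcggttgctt
Fgf21, chr7:45615491-45615740, minus strand, has its match 139 bases before the start:
Fgf21: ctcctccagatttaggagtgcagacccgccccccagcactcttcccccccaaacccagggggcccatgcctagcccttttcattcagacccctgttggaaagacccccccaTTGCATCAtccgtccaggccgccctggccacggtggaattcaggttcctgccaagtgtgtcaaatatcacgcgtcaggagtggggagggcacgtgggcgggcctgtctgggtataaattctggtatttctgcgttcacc
Mthfd2, chr6:83317605-83317854, minus strand, the list member of largest fold, has no match to these letters:
Mthfd2: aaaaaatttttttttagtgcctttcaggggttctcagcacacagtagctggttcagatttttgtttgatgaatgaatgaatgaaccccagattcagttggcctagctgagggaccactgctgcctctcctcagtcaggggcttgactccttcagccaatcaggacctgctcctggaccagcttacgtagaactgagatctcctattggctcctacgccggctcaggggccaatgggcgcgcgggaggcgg
Matches are descriptions of sequence, and no binding was measured.

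Mitochondrial and ribosomal transcripts varied along with fish 1124. The 13 protein-coding genes of the mitochondrial genome, subunits of the respiratory chain, summed to 199183, 191909 and 119304 CPM in fish 1067, 1123 and 1124 and to 180613 to 240114 CPM with lard. Only fish 1124 lay below the lard range. All 13 log2 fold changes were negative, none at an unadjusted p under 0.05, with a median of -0.30 that was -0.12 without fish 1124. The member of smallest p, mt-Co3 of cytochrome oxidase, was at -0.36 ± 0.20. Of 78 nuclear-encoded genes of oxidative phosphorylation 71 were negative, at a median of -0.09 (-0.02 without fish 1124). Within that list 1 gene was higher and 1 lower at an unadjusted p under 0.05. The higher one, the muscle cytochrome oxidase subunit Cox6a2, was at 782, 1093 and 1399 CPM in fish 1067, 1123 and 1124 against 591 to 898 CPM, with 58.1% unique reads. The lower one, the complex I subunit Ndufs7, was at 218, 209 and 197 CPM against 232 to 255 CPM.

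Of 29 heat shock and protein folding genes 15 were positive and 14 negative, at a median of 0.0035, with 2 higher and 1 lower at an unadjusted p under 0.05. The 2 of smallest p act in mitochondria. Hspa9, the matrix Hsp70, was at 463, 741 and 1012 CPM in fish 1067, 1123 and 1124 against 470 to 491 CPM with lard (0.62 ± 0.22, and 0.32 without fish 1124). Hspd1, the matrix chaperonin, was at 205, 228 and 249 CPM against 185 to 192 CPM (0.28 ± 0.09), so its groups did not overlap; it has 67% unique reads and overlaps Hspe1. All 77 tested genes of cytosolic ribosomal proteins were positive, at a median of 0.31 that was 0.04 without fish 1124. The members of smallest p were Rpl28 at 0.59 ± 0.18 and Rpl3 at 0.41 ± 0.13, of whose reads only 2.2% and 15.3% were unique.

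**Figure D3:**
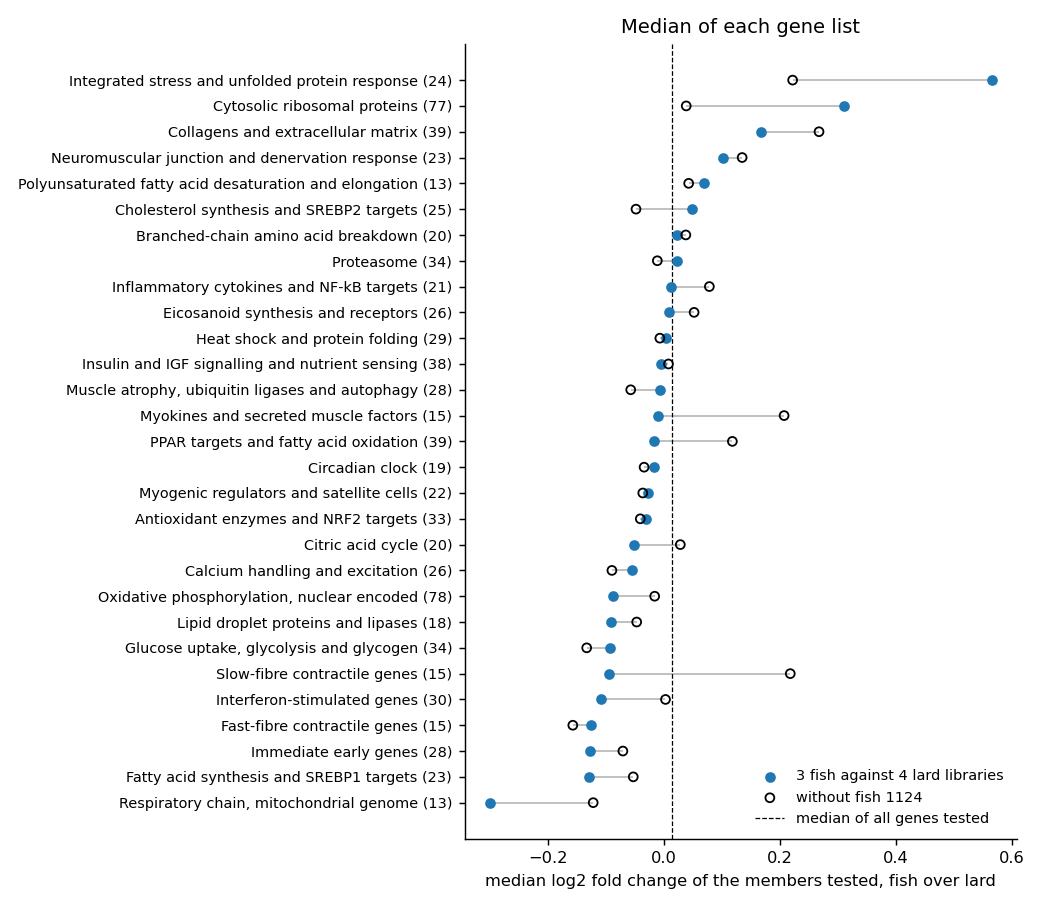
Median log2 fold change of fish over lard for each of 29 gene lists, with the number of members tested in brackets; filled points use all 7 libraries, open points leave out fish 1124, and the dashed line is the median of all genes tested. The integrated stress list lies at 0.57 and 0.22, the mitochondrially encoded genes at -0.30 and -0.12, and the ribosomal genes move from 0.31 to 0.04.

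Other genes were below every lard library in all 3 fish libraries. Ppp1r3c, which tethers protein phosphatase 1 to glycogen and promotes its synthesis (ENSMUSG00000067279, chromosome 19, 36731737 to 36736653), was at 221, 279 and 223 CPM in fish 1067, 1123 and 1124 and at 574, 625, 467 and 384 CPM in lard 1100, 1101, 1102 and 1130. The fish mean was 241 ± 33.2 CPM (SD, n = 3) against 512 ± 108 CPM (n = 4). The log2 fold change was -1.08 ± 0.18, 2.11-fold higher with lard, and did not pass by edgeR (adjusted p = 0.531), but passed by DESeq2 (adjusted p = 1.81e-05). Without fish 1124 it was -1.03. Soy muscles held 316 to 647 CPM and control muscles at most 273 CPM, so the fish libraries lay among or close to the controls and the lard libraries above them.

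Of the 34 genes of glucose uptake, glycolysis and glycogen 24 were negative, at a median of -0.09. At an unadjusted p under 0.05, 3 were higher and 2 lower, against 4.34% and 4.4% of all genes. Without overlap 1 was above and 3 were below all lard libraries, against 3.6% and 4.91% of all genes. Slc16a3, the lactate exporter MCT4 of fast fibres, was at 173, 110 and 133 CPM in fish 1067, 1123 and 1124 against 191, 209, 207 and 221 CPM with lard (-0.57 ± 0.15). Outside the list, Slc2a3, the glucose carrier GLUT3, was at 13.2, 11.2 and 11.0 CPM against 15.6 to 21.1 CPM (-0.65 ± 0.12). Slc2a4, the insulin-responsive carrier GLUT4, overlapped, at 440 to 481 CPM against 460 to 517 CPM (-0.11 ± 0.09).

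Of 23 fatty acid synthesis genes 3 lay below all lard libraries, against 4.91% of all genes, and none above. Srebf1, which encodes SREBP1, was at 48.0, 53.3 and 58.0 CPM in fish 1067, 1123 and 1124 against 68.6, 64.9, 72.4 and 76.6 CPM in lard 1100, 1101, 1102 and 1130 (-0.40 ± 0.10); its exons overlap those of Rai1 on the opposite strand. It was 1.32-fold higher with lard, and soy and control muscles spanned 39.3 to 75.1 CPM. Lpin1, a phosphatidate phosphatase of triglyceride synthesis and coactivator, was at 244, 232 and 165 CPM against 250 to 345 CPM (-0.47 ± 0.16). Me1, the malic enzyme that supplies NADPH, named after its values were seen, was at 266, 195 and 215 CPM against 267 to 318 CPM (-0.34 ± 0.12). Over the list 17 of 23 genes were negative, at a median of -0.13 (-0.05 without fish 1124), with 3 lower and none higher at an unadjusted p under 0.05. The synthase and desaturase genes did not separate: Fasn was at 395, 129 and 126 CPM against 103 to 412 CPM, and Scd1 at 1775, 492 and 604 CPM against 582 to 1954 CPM. In both, the spread within each group was wider than the difference between them. In the livers of these mice the same list had a median of -0.70.

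Another set of lower values lay in the muscle membrane and its calcium stores. Kcnj12, an inward-rectifier potassium channel, was at 28.5, 21.9 and 16.6 CPM in fish 1067, 1123 and 1124 against 48.0, 43.6, 38.1 and 36.6 CPM with lard (-0.89 ± 0.17; adjusted p = 0.00909 by DESeq2). Mrln, the micropeptide myoregulin that inhibits the calcium pump SERCA, was at 29.5, 22.8 and 17.5 CPM against 31.4 to 42.5 CPM (-0.65 ± 0.18). Kcna7, a voltage-gated potassium channel, was at 142, 129 and 106 CPM against 145 to 181 CPM (-0.36 ± 0.12). In all 3 genes fish 1124 was lowest and the groups did not overlap. Of the 26 genes of calcium handling and excitation 5 were lower and 1 higher at an unadjusted p under 0.05, against 4.4% and 4.34% of all genes. Their median was -0.06.

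The remaining genes that the rule chose for smallest p among those below all lard libraries were spread over functions. Slc7a8, a neutral amino acid carrier, was at 11.5, 9.94 and 12.1 CPM in fish 1067, 1123 and 1124 against 16.9 to 17.7 CPM with lard, and had the smallest p of this set (-0.63 ± 0.10; adjusted p = 0.00864 by DESeq2). The lysosomal peptide carrier Slc15a4 was at 7.50, 7.26 and 6.24 CPM against 10.2 to 12.6 CPM. Map3k14, the kinase NIK of noncanonical NF-kB signalling, was at 6.71, 5.64 and 5.43 CPM against 8.77 to 10.5 CPM. Trim24, a chromatin reader and nuclear receptor cofactor, was at 44, 44.6 and 38.9 CPM against 53.3 to 58.8 CPM. Spns2, a sphingosine-1-phosphate exporter, was at 96.5, 104 and 106 CPM against 122 to 178 CPM, with exons that overlap Mybbp1a. Tecpr2, which acts in autophagy, was at -0.51 ± 0.09 and the zinc finger gene Zfp768 at -0.44 ± 0.08. None of these passed after adjustment by edgeR, although Slc15a4, Trim24, Spns2, Tecpr2 and Zfp768 had DESeq2 adjusted p values of 0.049, 0.047, 0.0173, 0.0319 and 0.0356.

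**Figure D4:**
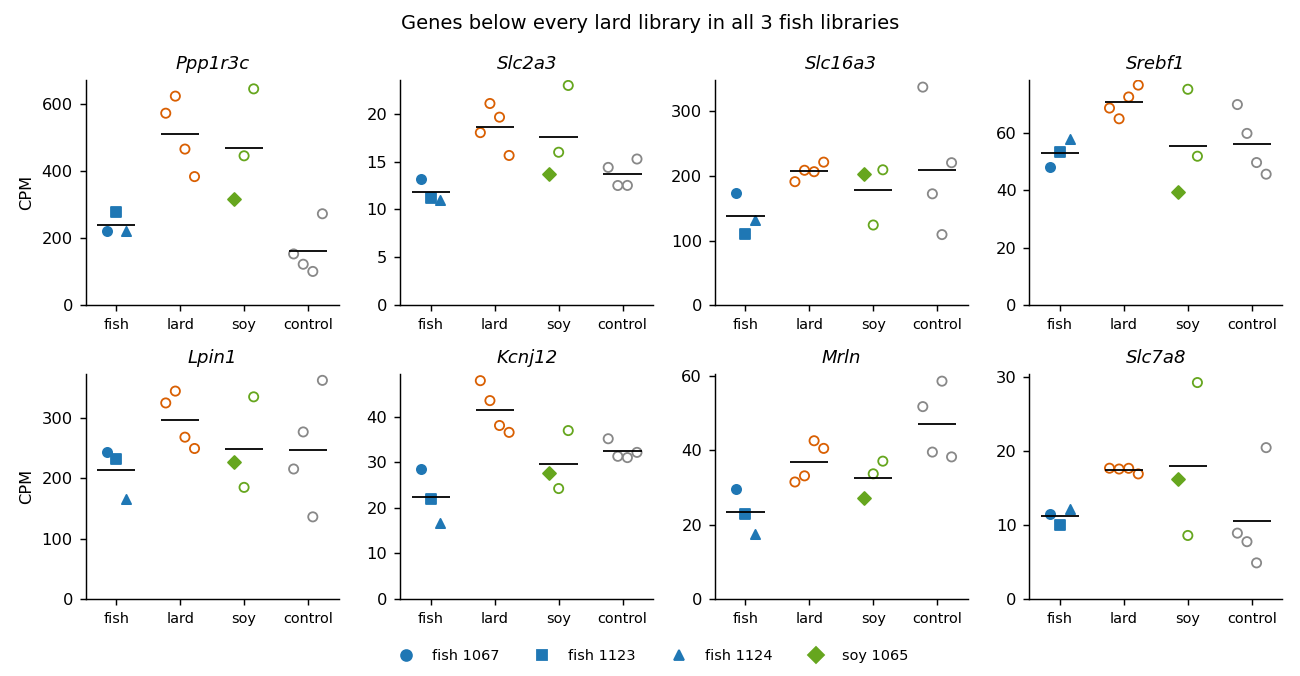
CPM of 8 genes on linear axes from 0, with 1 point per muscle library grouped by diet and a line at each group mean; filled blue symbols mark fish 1067 (circle), 1123 (square) and 1124 (triangle), and the diamond is soy 1065. All 3 fish points lie below all 4 lard points in every panel, for Ppp1r3c at 221 to 279 CPM against 384 to 625 CPM.

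Among genes above every lard library in all 3 fish libraries, several were highest in fish 1124. Sh2d6, an SH2-domain adaptor, was at 2.68, 7.73 and 30.5 CPM in fish 1067, 1123 and 1124 against 0.638 to 1.67 CPM with lard (3.68 ± 0.79, and 2.27 without fish 1124), and at 8.63 CPM in soy 1065. Nmrk2, the muscle nicotinamide riboside kinase of NAD synthesis, was at 69.2, 51.1 and 131 CPM against 23.4, 19.2, 20.6 and 44.2 CPM (1.66 ± 0.38, and 1.17 without fish 1124). Only 52.1% of Nmrk2 reads were unique, and control muscles held 50.3 to 106 CPM. Reep6, which shapes endoplasmic reticulum, was at 4.69, 7.79 and 12.9 CPM against 3.02 to 3.75 CPM (1.31 ± 0.30, and 0.87 without fish 1124).

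Smaller differences were more even across the fish libraries in Cyb5r2, Cstb and Stam2 than in Spg20, Tceal7 and Gstm2. Cyb5r2, a cytochrome b5 reductase, was at 7.13, 9.0 and 8.25 CPM in fish 1067, 1123 and 1124 against 4.43 to 5.74 CPM with lard, the smallest p among the higher genes (0.74 ± 0.15); its exons overlap Ppfibp2. Cstb, the cathepsin inhibitor cystatin B, was at 8.29, 7.73 and 8.99 CPM against 5.52 to 6.17 CPM (0.52 ± 0.12). Stam2, of endosomal sorting, was at 14.0, 14.2 and 15.9 CPM against 10.2 to 11.8 CPM (0.41 ± 0.10). Spg20, the lipid droplet and endosome protein spartin, was at 34.2, 41.4 and 56.9 CPM against 27.1 to 30.5 CPM (0.63 ± 0.16, and 0.40 without fish 1124). Tceal7 was at 16.5, 24.1 and 31.3 CPM against 7.06 to 15.5 CPM (1.17 ± 0.28, and 0.93 without fish 1124). Mettl15, a mitochondrial ribosomal RNA methyltransferase, was at 5.85, 7.26 and 7.51 CPM against 3.69 to 4.94 CPM. Exons of Tceal7 overlap those of Bex1, and exons of Mettl15 those of Kif18a, both on the opposite strand. Taf9, at 0.75 ± 0.17, shares exons with Ak6 on its own strand and has 61.8% unique reads. Gstm2, a glutathione transferase, was at 59.9, 68.3 and 96.1 CPM against 43 to 57.5 CPM (0.65 ± 0.17, and 0.42 without fish 1124).

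Genes of fatty acid oxidation and PPAR signalling mostly overlapped. Of 39 tested, 16 were positive and 23 negative, at a median of -0.02 (0.12 without fish 1124), with 1 higher and none lower at an unadjusted p under 0.05. That 1 was Acot2, a mitochondrial acyl-CoA thioesterase, at 19.3, 37.1 and 77.1 CPM in fish 1067, 1123 and 1124 against 12.4 to 20.6 CPM with lard, with 72.7% unique reads (1.56, and 0.90 without fish 1124). Pdk4, the kinase that holds back pyruvate oxidation during fasting, was at 485, 505 and 416 CPM against 941, 915, 761 and 303 CPM (-0.63 ± 0.33). Lard 1130 lay below all fish libraries while the other 3 lay above them, and Ucp3, the muscle uncoupling protein, had the same arrangement except in fish 1124 (123, 133 and 87.5 CPM against 212, 213, 155 and 89.2 CPM). Angptl4, a lipase inhibitor, was at 3.49 to 6.89 CPM against 3.11 to 10.2 CPM. Cpt1b, the gate of mitochondrial fatty acid entry, was at -0.07 ± 0.11, the carrier Cd36 at 0.10 ± 0.17 and the coactivator Ppargc1a at -0.46 ± 0.20.

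Desaturases, lipid droplet and cholesterol genes had small list medians, with larger values in single genes such as G0s2. The delta-5 and delta-6 desaturases Fads1 and Fads2, which act on dietary polyunsaturated fat, were at -0.04 ± 0.22 and 0.16 ± 0.37. The droplet proteins Plin2 and Plin5 were at 0.06 ± 0.17 and -0.06 ± 0.30. G0s2, an inhibitor of adipose triglyceride lipase, was at 13.8, 27.7 and 47.0 CPM in fish 1067, 1123 and 1124 against 8.85 to 21.5 CPM with lard (1.19, and 0.68 without fish 1124), and the phospholipase Pnpla8 at 113, 107 and 100 CPM against 115 to 136 CPM. The median was 0.05 over 25 cholesterol genes, 0.07 over 13 desaturation and elongation genes and -0.09 over 18 droplet genes.

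Fibre-type genes varied more within the groups than between them. Myh7, the slow myosin heavy chain, ranged from 149 to 1652 CPM among fish libraries and from 562 to 1485 CPM among lard libraries (-0.37 ± 0.71). Myh2, Myh1 and Myh4 of the fast fibre types were at 0.40 ± 0.36, -0.29 ± 0.36 and -0.15 ± 0.17. The 15 slow genes had a median of -0.09 that was 0.22 without fish 1124 and -1.10 without fish 1123, and the 15 fast genes one of -0.13; no member was under 0.05 in unadjusted p.

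Genes of atrophy and insulin action leaned differently by gene. Foxo1, a transcription factor of fasting and muscle loss, was at 25.1, 19.3 and 16.4 CPM in fish 1067, 1123 and 1124 against 44.7, 74.4, 30.6 and 24.4 CPM with lard (-1.09 ± 0.36), with lard 1130 inside the fish range. Its target Trim63, the ubiquitin ligase MuRF1, was at 211, 163 and 191 CPM against 156 to 363 CPM (-0.52 ± 0.25), and the ligase Fbxo32 was at -0.04 ± 0.23. Irs1, the insulin receptor substrate, was at 0.16 ± 0.13 with 49.9% unique reads. Eda2r, a receptor of the ectodysplasin family, was at 29.1, 52.9 and 83.8 CPM against 17.6 to 29.6 CPM (1.20 ± 0.32, and 0.76 without fish 1124). The cell cycle inhibitor Cdkn1a, named after its values were seen, was at 10.2, 30.8 and 41.0 CPM against 8.30 to 18.0 CPM (0.99, and 0.56 without fish 1124). The 28 atrophy genes had a median of -0.01, with 4 higher and 3 lower at an unadjusted p under 0.05, and the 38 insulin and nutrient genes one of -0.01, with 4 and 4.

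Of 19 clock genes 1 lay below all lard libraries, against 4.91% of all genes. Per2, a repressor of the circadian loop, was at 32.4, 36.2 and 26.7 CPM in fish 1067, 1123 and 1124 against 51.8, 47.2, 41.3 and 39.1 CPM with lard (-0.49 ± 0.13). Per1, Dbp and Arntl were at 0.06 ± 0.17, 0.07 ± 0.19 and -0.03 ± 0.19. The 19 clock genes had a median of -0.02. Among 28 immediate early genes, 3 were higher and 1 lower at an unadjusted p under 0.05, at a median of -0.13; Fosl2, an AP-1 subunit, was at 24.4, 22.6 and 21.8 CPM against 15.4 to 20.2 CPM (0.40 ± 0.11). Vegfb, a vascular growth factor among the muscle-secreted factors, was at 54.6, 53.8 and 41.2 CPM against 57.4 to 79.0 CPM (-0.41 ± 0.14).

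Markers of connective tissue and nerve leaned toward fish oil. Of 39 collagen and matrix genes 33 were positive, at a median of 0.17 (0.27 without fish 1124), with 2 higher at an unadjusted p under 0.05: the proteoglycan Dcn at 0.35 ± 0.15 and Postn at 0.65 ± 0.28. Tendon markers, all 10 tested positive, summed to 351, 278 and 127 CPM in fish 1067, 1123 and 1124 and to 68.2, 62.2, 112 and 389 CPM with lard (exact two-sided permutation p = 0.286). All 16 Schwann cell and nerve markers were positive, with 5 higher at an unadjusted p under 0.05, against 4.34% of all genes. They summed to 274, 326 and 171 CPM against 142 to 244 CPM (exact p = 0.171). With 3 against 4 libraries the smallest exact p is 0.0571. Their part in the differences above was not tested, and fibroblast markers summed to 1628 to 2007 CPM against 1296 to 1930 CPM.

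The difference between the diets was then compared between muscle and liver of these mice in 1 fit of 15 libraries and 13790 genes. It differed in 2 genes (0.0145%), both of which had negative values in liver and values nearer 0 in muscle. Got1, the cytosolic aspartate aminotransferase, had a muscle minus liver value of 1.5 ± 0.22 (adjusted p = 0.0372), from 0.26 ± 0.12 in muscle and -1.26 ± 0.14 in liver. The gene 1810055G02Rik had 1.09 ± 0.16 (adjusted p = 0.0372), from 0.05 in muscle and -1.06 in liver. With the animal as a block, which uses the 7 mice with both tissues, 17 genes passed (0.123%), with a muscle minus liver value above 0 in 14 and below 0 in 3. DESeq2 without the block called 266. The edgeR count of 2 without the block fell to 0 without any 1 of fish muscle 1123 or 1124, lard muscle 1100 or 1130, fish liver 1124, or lard liver 1100 or 1130, and was 140 without fish muscle 1067. Without fish liver 1125, which leaves the 7 mice with both tissues, it was 29 (17 above 0 and 12 below).

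Cholesterol synthesis supplied 7 of the 17, with negative liver values and muscle values closer to 0. Sqle, which forms squalene epoxide, had a muscle minus liver value of 2.49 ± 0.26, from 0.51 in muscle and -1.52 in liver. Idi1, Fdps, Cyp51, Nsdhl and Dhcr7, further enzymes of the pathway, had 1.53, 1.49, 1.13, 1.22 and 1.31. Apoa4, an apolipoprotein, had 3.29 ± 0.40, at 3.08 and 2.91 CPM in fish and lard muscle and 115 and 900 CPM in fish and lard liver. Gstm2 had 1.67 ± 0.21, from 0.65 in muscle and -1.05 in liver, and so was on opposite sides of 0 in the tissues. The 3 genes with a value below 0 were Rbm38, Pknox2 and Gm4070. Rbm38 stood at 81.0 CPM in fish muscle and 3.92 CPM in fish liver, and Pknox2 at 30.2 and 2.04 CPM. Fish liver 1123 held 938 CPM of the muscle myosin Myh4, against 52.3 to 92.0 CPM in the other fish and lard livers. The part of muscle RNA in that liver library was not tested. In liver alone 59 genes rose with fish oil (0.479%) and 77 fell (0.625%) by the same edgeR test.

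**Figure D5:**
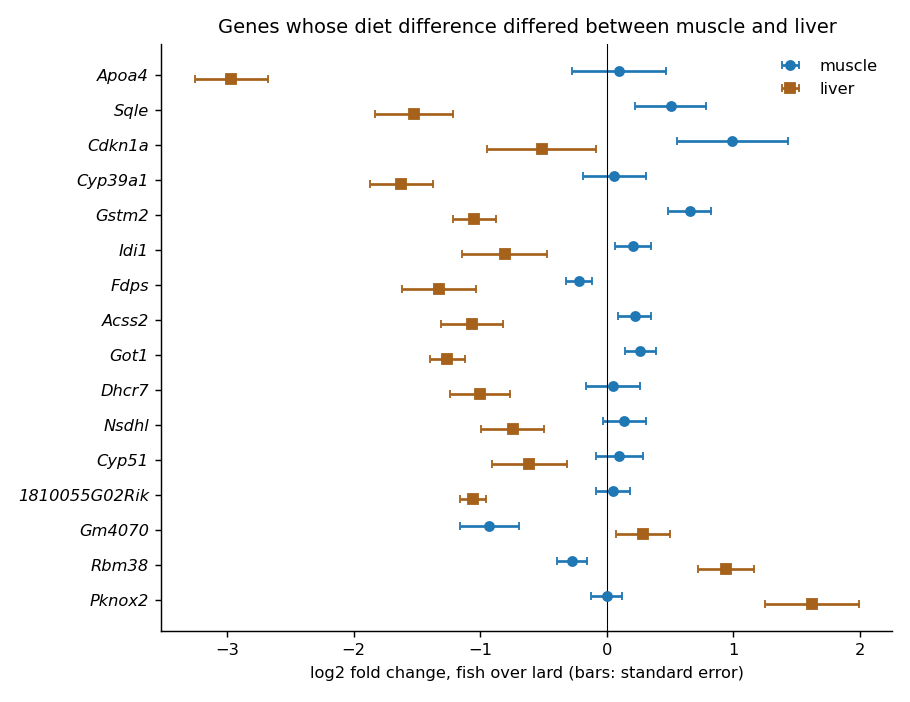
Log2 fold change of fish over lard in muscle (circles) and liver (squares), with standard errors as bars, for 16 of the 17 genes whose diet difference differed between the tissues with the animal as a block. For most genes the muscle value lies near 0 and the liver value is negative, as for Apoa4 at 0.10 and -2.97.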

How the data were processed

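Per the file headers, the deposited table holds 3 counts per gene and library, of which the total exon reads were the measurement and the unique exon reads an alternative. RPKM values made by the authors and exon lengths stand beside them, per the file headers, and were not tested. The authors' deposited p-value per gene is unadjusted. The submitters' processing notes name FastQC and GRCm38; the aligner, the counting tool and strandedness were not given in the sources used here. Of 38124 genes 36345 were given GENCODE M21 symbols and 1779 were not.

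The 7 libraries alone were fitted with edgeR 4.0.16 in R 4.3.3: filterByExpr with a minimum count of 10, TMM normalization, the quasi-likelihood F test and Benjamini-Hochberg adjustment over all genes tested, with a threshold of 0.05. A standard error is the log2 fold change divided by the square root of F. CPM were scaled by TMM over all 14 muscles, and liver CPM over the livers alone. The common biological coefficient of variation was 0.177. On data simulated from these libraries, 90% of 100 genes changed 2-fold and 97% of 100 changed 4-fold were recovered among 12710 genes simulated. The changed genes were drawn from those with a mean of at least 5 CPM, so recovery below that level was not measured. Of the calls, 7.88% were false. In the measured libraries neither Mthfd2, 39.6-fold higher with fish oil, nor Ppp1r3c, 2.11-fold higher with lard, passed (edgeR adjusted p = 0.531 for both). The recovered shares therefore describe the simulated counts, and do not show that a 2-fold change would have been called in the measured libraries. Every pair of libraries of a group differed beyond sampling noise (chi-square over its degrees of freedom 11.0 or more), so none was a duplicate. Pairing by animal in the comparison of tissues comes from the labels. Muscle and liver deviations of the same mouse had correlations of -0.0179 to 0.105.

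Alternatives were DESeq2 1.42.0, limma-voom (limma 3.58.1), other filters, more muscles in the fit, unique reads, the library number as a replicate block and each library left out. Leaving out fish 1124 and lard 1102 together was chosen after seeing the data. Named genes were, where nothing passed, up to 10 per direction of smallest p with no overlap and a mean of at least 5 CPM, the 2 members of smallest p per list, and a set always given; others are marked in the text. Promoter windows came from RefSeq (GRCm38.p6). The genes and lists were chosen with earlier results of these data known. A few genes that the rule names are not reported here.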

Additional observations from a re-analysis of the deposited data

Results flagged for a closer look

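Among the 4 lard muscles, single libraries stood apart from the other 3 in several genes. Lard 1101 was high in the stress-induced transcription factor Atf3, at 235 CPM against 3.67 to 11.8 CPM, in the chaperone Hspa1a, at 81.1 CPM against 2.47 to 11.5 CPM (19.8% unique reads), and in Xirp1, an actin-binding protein of the muscle cell's junctions, at 898 CPM against 54.4 to 98.2 CPM (3.76% unique reads). It was also high in Slc15a4 at 12.6 CPM, in Cox6a2 at 898 CPM and in Ppargc1a at 66.6 CPM. Lard 1130 was high in Cyp1a1, the cytochrome P450 induced through the aryl hydrocarbon receptor, at 109 CPM against 0.872 to 3.34 CPM. Cyp1a1 therefore had a log2 fold change of -5.23 ± 2.04 that rested on this library. These genes, apart from those the report names by rule, were picked after their values were seen.

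Lard 1130 was further high in Nmrk2 at 44.2 CPM, in Fads2 at 4.07 CPM and in summed tendon markers at 389 CPM, and low in Slc7a8 at 16.9 CPM. Lard 1102 was high in Fbxo32 at 509 CPM and in Arntl at 6.27 CPM, and lard 1100 in Map3k14 at 10.5 CPM. Chance flags about 1 in 20 groups of 4, and over 100 genes were looked at.

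The difference between diets was itself different in muscle and liver for 1810055G02Rik, by 1.09, and for Got1, by 1.5 (edgeR interaction, adjusted p = 0.0372 for both).

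Outside the compared groups, soy 1065 held 129 CPM of Mthfd2, 25.9 CPM of Psat1 and 17.6 CPM of Asns, above control muscles at 3.11 to 8.53, 3.0 to 4.73 and 1.40 to 4.62 CPM.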

How the results depend on the processing

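The count of 0 genes past the threshold between fish oil and lard in muscle was 38 by DESeq2 and ranged from 0 to 41 on leaving out 1 library, with 41 without fish 1067; every other setting in the list of alternatives gave 0, while unadjusted counts ran from 107 to 1811. The library number as a replicate block gave 0 genes; the same-number correlations of 0.250, -0.295 and -0.0549 do not pair these libraries. For the tissue difference the count of 2 was 266 by DESeq2, 4 at a mean of at least 5 CPM, 17 with the animal as a replicate block and 0 to 140 on leaving out 1 library.

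Of 1973 values of 104 genes under these settings, 1892 kept their direction and side of the threshold, 36 passed it and 45 turned, in 18 genes. With voom and library weights Chac1 was -0.0271, Fads2 -0.196, Plin2 -0.0378, Plin5 0.0404, Myh7 0.0658 and Myh1 0.00344. With voom Fbxo32 was 0.0219 and Arntl 0.0122. With the library number as a replicate block Fads2 was -0.00836, Fasn 0.0454, Myh1 0.12, Atf3 0.11 and Xirp1 0.31. Without fish 1124 and lard 1102 Ddit3 was -0.0459, Cpt1b 0.0479, Fads1 0.0070, Plin5 0.28, Fbxo32 0.28 and Arntl 0.0838. On leaving out 1 library the log2 fold changes spanned -0.12 to 0.53 for Chac1, -0.15 to 0.0265 for Cpt1b, -0.038 to 0.29 for Cd36, -0.29 to 0.13 for Fads1, -0.55 to 0.43 for Fads2, -1.0 to 0.0985 for Fasn, -0.15 to 0.17 for Plin2, -0.33 to 0.25 for Plin5, -0.16 to 0.25 for Fbxo32, -1.81 to 0.10 for Myh7, -0.17 to 0.71 for Myh2, -0.51 to 0.0245 for Myh1, -0.0742 to 0.18 for Per1, -0.0287 to 0.22 for Dbp, -0.11 to 0.14 for Arntl and -2.0 to 0.34 for Xirp1. The cause was not tested.

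Without fish 1124 the log2 difference of summed markers turned to -0.74 for keratinocytes, -0.0478 for T cells, -0.22 for antigen presentation and 0.0621 for pericytes and smooth muscle. Of 551 list medians 548 moved by less than the spread, the SD of the list's mean log2 CPM within the groups. The 3 that moved by more were all without fish 1123: glucose genes at -0.04, slow-fibre genes at -1.10 and calcium genes at -0.11. The spread is wide where fish libraries differ, as in the integrated stress list (means of 3.72, 4.87 and 5.75 in fish 1067, 1123 and 1124). Without fish 1124, its move from 0.57 to 0.22 and that of ribosomal genes from 0.31 to 0.04 counted as within the spread. The count of 548 therefore does not show that such medians were stable.

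The number of animals, 3 against 4, and the depth limit the calls, and changes under 2-fold were not simulated. Recovery of 2-fold and 4-fold changes was measured on simulated counts only. The share of unique reads limits single paralogs, and the unknown strand setting limits genes that overlap on opposite strands. Beyond those marked above, Cox6a2, Me1, Myh7, Irs1, Dbp, Rpl28 and Hspa1a have such an overlap.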
